A study of Mus musculus with 15 samples.

Results

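The cytosolic ribosomal protein genes encode the protein part of the ribosomes that translate messenger RNA in the cytoplasm. Members were taken by symbol: Rplp0, Rplp1, Rplp2, Rpsa, and Rpl or Rps followed by a number with an optional letter, on probe sets annotated with a single gene symbol. A probe set is the group of short probes on an array that reports on one transcript. By this rule 42 of 18193 measured genes were members, 22 of the large (60S) and 20 of the small (40S) ribosomal subunit. Each gene was read from its brightest probe set. RefSeq holds 76 protein-coding mouse genes that fit the symbol rule. A further 27 of them, Rplp1 and Rpl5 among them, appeared here on probe sets that list several gene symbols, and these are described separately.

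RNA came from acute myeloid leukemia cells extracted from mouse spleens. In every group the leukemia carried both the Mll-AF9 fusion gene and NRASG12V, an oncogenic RAS transgene whose expression doxycycline abolishes. The cells had been passed by tail vein into SCID/Beige mice, which lack most lymphocytes and still have their own blood-forming and spleen cells. The RAS-ON group is 5 arrays from vehicle-treated animals at 0 h. For RAS-OFF there are 5 groups of 2 arrays, at 48, 60, 72, 84 and 96 h of doxycycline, given by injection and in the drinking water. All RAS-ON arrays stand at 0 h, so loss of NRASG12V, doxycycline itself and time in the animal cannot be told apart. The labels name neither the promoter of the transgene nor the age of the animals, and do not say whether a replicate was 1 animal. The p-values therefore reflect how far these samples scatter, and some of that scatter may be technical.

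Most ribosomal proteins are needed in equal numbers, and their messenger RNAs are among the most abundant of a growing cell. Most of these mRNAs begin with a C and a run of pyrimidines, the 5′ terminal oligopyrimidine (TOP) motif. Growth signals that pass through the kinase complex mTORC1 and the RNA-binding protein LARP1 set how strongly TOP mRNAs are translated and how long they last. Control of this family is therefore largely translational, and an array measures only the amount of RNA.

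The sequence around the annotated transcription start is printed for 8 members, to show forms of that motif and, in Rps19 and Rpl11, its absence. Sequences are from RefSeq (GRCm38.p6), 20 letters before the start and 10 from it on, 5′ to 3′ on the gene's strand. Capitals mark a pyrimidine run of at least 5 letters that opens with C within 5 letters of the start. Each run is taken from the first C of its whole pyrimidine stretch. The first 4 are called lower below on their brightest single-symbol probe set, and the last 4 are not called on theirs. The last 4 all carry such a run, and so do not represent the members not called. Among members of mean log2 intensity above 13 with a promoter entry, 7 of 22 not called and 3 of 6 called lower had the run.
Rps19 (chr7:24884572-24884601, plus strand): agcactccgaaatctcgcgagactcgacgc
Rpl11 (chr4:136053384-136053413, minus strand): gcctcctgacccataaggccacggggccgg
Rpl38 (chr11:114668560-114668589, plus strand): ccggaagcggaagcctcgttCTTTCCCCgt
Rps2 (chr17:24720043-24720072, plus strand): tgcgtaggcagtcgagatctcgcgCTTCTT
Rps24 (chr14:24490658-24490687, plus strand): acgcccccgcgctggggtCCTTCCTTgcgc
Rps10 (chr17:27635235-27635264, minus strand): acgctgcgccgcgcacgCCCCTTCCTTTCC
Rplp2 (chr7:141447631-141447660, plus strand): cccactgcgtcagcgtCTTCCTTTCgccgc
Rps18 (chr17:33955656-33955685, minus strand): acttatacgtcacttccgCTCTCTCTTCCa
The run opened at the annotated start itself in Rpl38 and up to 4 letters before it in Rps24, Rps10, Rplp2 and Rps18. In Rps2 it opened 4 letters after the start. In Rps19 and Rpl11 no such run lay near the start listed first in RefSeq.

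Promoter entries were found for 37 of the 42 members, and were missing for Rpl7, Rpl8, Rps14, Rps20 and Rps29. A run as defined above was present in 15 of the 37 members (40.5%), against 16.1% of 27025 genes with an entry. Stretches whose first C lay more than 5 letters before the start were not counted, in members or in other genes. Rpl35, Rpl14 and Rpl7a have such a stretch across the start and so count as lacking a run. The shares can therefore be too low for starts that lie inside longer pyrimidine stretches. The ETS-type motif CCGGAAG, searched on both strands from 250 letters before the start to 50 after it, was present in 18 members (48.6%), against 9.12% of all genes. The other motifs searched the same way were the E-box CACGTG in 3 members (8.11% against 7.24%), the YY1-type motif AAGATGGCG in 2 (5.41% against 1.49%) and TATAAA in 4 (10.8% against 14.2%). CCGGAAG and AAGATGGCG can overlap in the letters AAG. Over the letters searched, the median GC content was 56.7% in members and 52.7% over all genes. The shares were not adjusted for this difference. Among the brightly detected members with an entry, the run was present in 3 of the 6 called lower and 7 of the 22 not called. Rpl35 and Rpl7a, with the uncounted stretches, are among these 22. CCGGAAG was present in 5 of the 6 and 8 of the 22. These matches are descriptions of letters near a listed start and were not tested against expression.

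Array medians lay between 150 and 156.5 intensity units. The RAS-ON arrays fell into a pair of sets: the SD of the log2 difference over genes was 0.166 to 0.219 within the set of arrays 1 to 3 and 0.169 for the pair 4 and 5, but 0.236 to 0.302 across the sets. The log2 Gapdh 3′ minus 5′ difference, which grows as RNA degrades, reached 1.22 for replicate 1 of 96 h, against 0.0989 to 0.355 elsewhere. Of 9 leukemia (myeloid) markers, 5 fell and 1 rose with a median change of -1.11, and their summed intensity was 46662 to 53024 in RAS-ON and 20350 to 29961 in RAS-OFF arrays. All 8 measured erythroid markers of 10 listed rose, with a median of 1.53 and a summed intensity of 28276 to 34388 in RAS-ON and 70727 to 88938 in RAS-OFF arrays. Red pulp macrophage markers (8 of 10 higher, 2 lower), megakaryocyte markers (5 of 5 higher) and stromal or endothelial markers (4 of 6 higher, 1 lower) also moved. Of the B-cell markers 3 of 4 fell and 1 rose, and of the T-cell markers 2 of 5 rose. No marker was at 0, since the deposited intensities hold no 0. In bulk RNA fewer cells of a type and less RNA per cell cannot be told apart, and the part of these cell types in the changes below was not tested.

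The first question is how the ribosomal protein mRNAs stood once NRASG12V had been turned off. Their levels moved little, and mostly slightly downward, with a median close to that of all genes. The median log2 change of the 42 members was -0.05, against -0.04 over all genes. The median size of the change, whatever its sign, was 0.0522, against 0.161 over all genes. Of the 42 members, 36 had a change below 0. The same count was not made over all genes, whose median was also below 0. By limma's test with Benjamini-Hochberg adjustment over all 18193 genes, 10 members were lower, 1 was higher and 31 did not pass an adjusted p of 0.05. That is 26.2% of members called, where 48.8% of all genes were called (28.7% lower, 20.1% higher). Values of the 10 RAS-OFF arrays lay below all 5 RAS-ON values for 10 members, and for 12% of all genes. No member had all RAS-OFF values above RAS-ON, and 21.3% of all genes had groups without overlap in either direction.

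**Figure D1:**
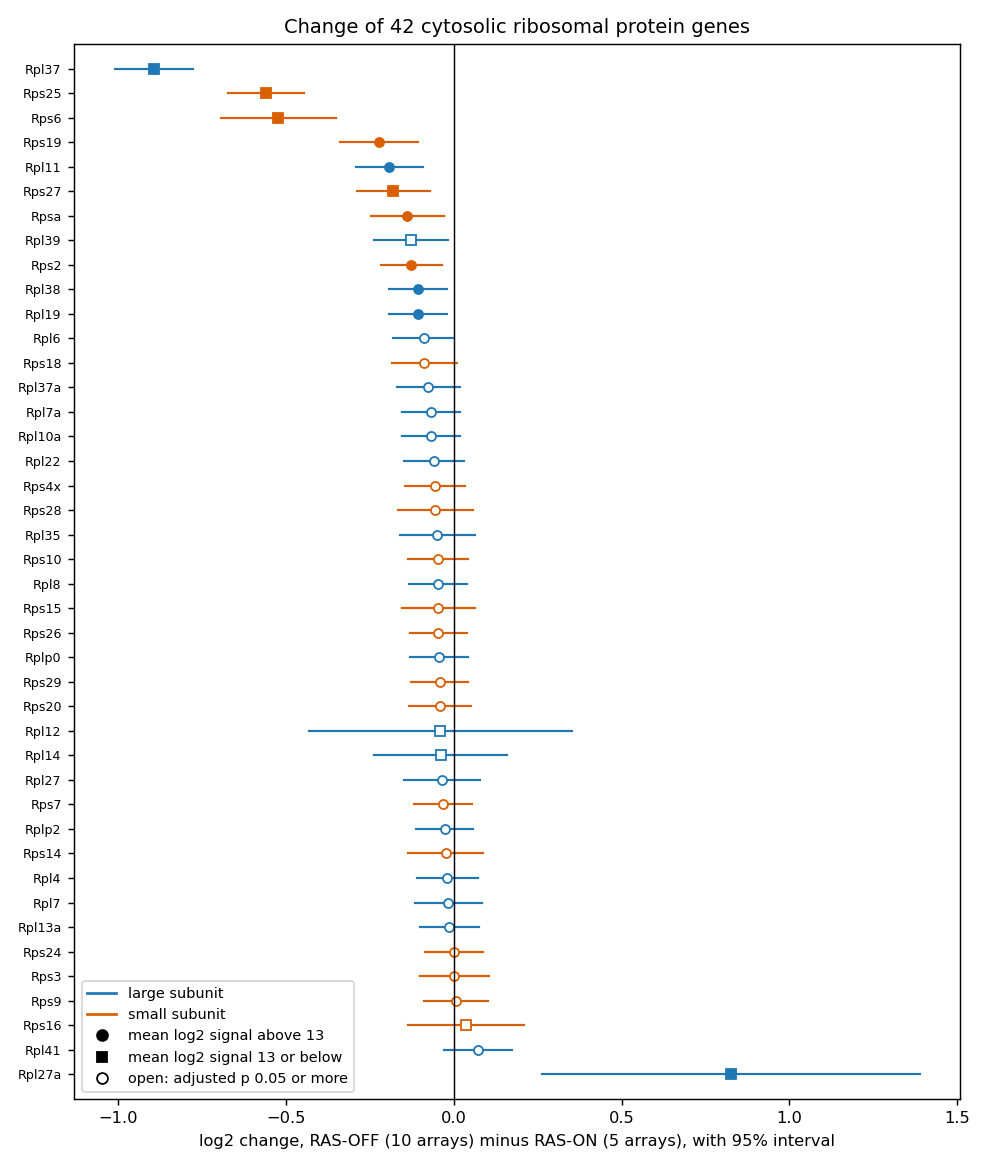
Log2 change (RAS-OFF minus RAS-ON) of each of the 42 members with its 95% interval, ordered by change; blue is the large and orange the small subunit, circles are probe sets of mean log2 intensity above 13, squares dimmer ones, and filled symbols passed an adjusted p of 0.05. The circles sit between -0.22 and 0.07, while the widest changes, from Rpl37 at -0.89 to Rpl27a at 0.83, are squares.

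The members divide by how brightly their probe set was detected. The brightness of a probe set depends on its probes as well as on the RNA, so it is used only to group probe sets. In 33 members the mean log2 intensity was above 13 (13.45 to 14.44), which placed them between the 99.49th and 99.96th percentile of all genes, near the highest value on an array (14.69 to 14.93). In the other 9 members it was 6.22 to 10.73. Of the 33 bright members 6 were lower, 0 higher and 27 not called by limma, and 6 of the 33 had an unadjusted p below 0.05. Their changes ran from -0.22 to 0.07. For each of the 27 the 95% interval of the change lay within 0.25 log2 units of 0, with bounds from -0.18 to 0.17.

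Changes of other genes above log2 13 were larger by their median. Of the 147 genes above log2 13 that are no members, 52.4% were called (47 or 32% higher, 30 or 20.4% lower), and the median size of their change was 0.138. The interval lay within 0.25 of 0 for 46.9% of them and for 93.9% of the 33 bright members. The residual SD within groups had a median of 0.0414 for the bright members, 0.0781 for the other bright genes and 0.119 for all genes. The other genes include some dimmer than every bright member, whose means begin at 13.45, so the sets were not matched in brightness. Whether signals near the top of the range are compressed was not tested.

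**Figure D2:**
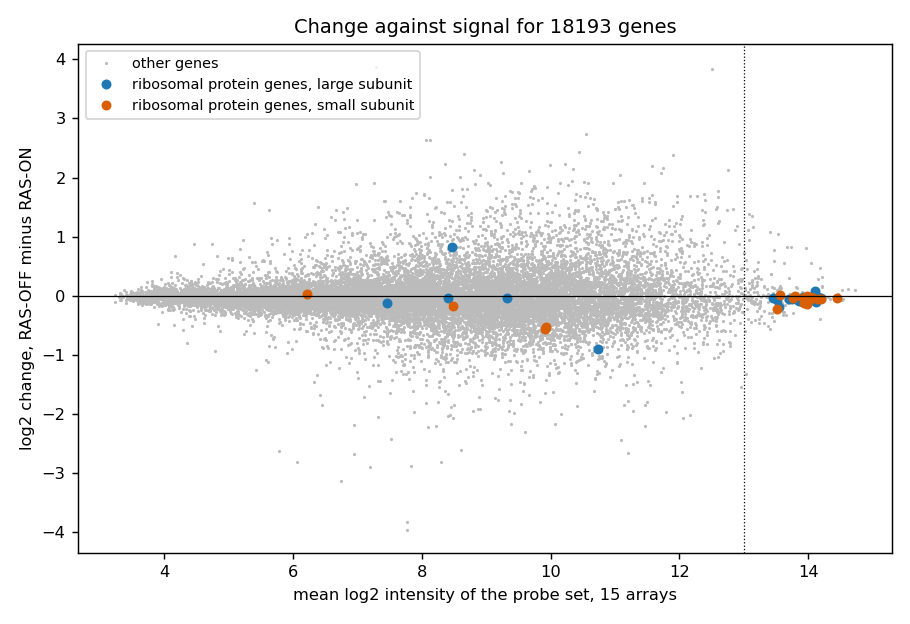
Log2 change (RAS-OFF minus RAS-ON) against the mean log2 intensity of the probe set over 15 arrays for 18193 genes (grey) and the 42 members (blue, large subunit; orange, small subunit), with a dotted line at 13. The 33 members to the right of the line lie within -0.22 and 0.07, and the 9 to its left are scattered from -0.89 to 0.83.

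Among the bright members, Rps19 and Rpl11 fell furthest. Rps19 is a small-subunit protein needed to process ribosomal RNA, and the gene most often mutated in Diamond-Blackfan anemia, a failure of red cell production. Its log2 intensity was 13.68, 13.61, 13.60, 13.74 and 13.71 in the RAS-ON arrays. In the RAS-OFF arrays it was 13.39 and 13.53 at 48 h, 13.51 and 13.51 at 60 h, 13.43 and 13.36 at 72 h, 13.43 and 13.46 at 84 h, and 13.26 and 13.55 at 96 h. All 10 RAS-OFF values were thus below the lowest RAS-ON value, and the 96 h pair was the widest apart. The RAS-ON mean was 13.67 ± 0.06 (SD, n = 5), and that of all RAS-OFF arrays was 13.44 ± 0.09 (SD, n = 10). The change was -0.22 ± 0.05 (SE; limma adjusted p = 0.00326), which is -14.4% on the linear scale.

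Rpl11 belongs, with Rpl5 and 5S ribosomal RNA, to a particle that binds Mdm2 and stabilises p53 when ribosome assembly fails. Its RAS-ON values were 13.68, 13.63, 13.70, 13.67 and 13.67. Its RAS-OFF values were 13.47 and 13.52 at 48 h, 13.54 and 13.55 at 60 h, 13.51 and 13.27 at 72 h, 13.49 and 13.46 at 84 h, and 13.45 and 13.51 at 96 h. The RAS-ON arrays were tightly grouped and all 10 RAS-OFF arrays were lower, with 1 array of 72 h lowest of all. The change was -0.19 ± 0.05 (SE; limma adjusted p = 0.00346). Its partner Rpl5 was measured only on probe sets of several symbols, and the brightest of them changed by -0.09 ± 0.04 (SE; adjusted p = 0.1). Its dimmer sets, of mean 9.28 and 9.05, were called lower. They changed by -0.33 ± 0.11 and -0.48 ± 0.11 (SE; limma adjusted p = 0.027 and 0.00239).

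The other 4 bright members called lower changed less. Rps2, which lies at the entry of the mRNA channel of the small subunit, was 13.97 to 14.08 in RAS-ON and 13.83 to 13.94 in RAS-OFF arrays, and its change was -0.13 ± 0.04 (SE; limma adjusted p = 0.0231). On 2 brighter probe sets that list Rps2 with predicted genes the change was -0.06 ± 0.04 and -0.04 ± 0.04 (SE; adjusted p = 0.244 and 0.497). Rpsa, near the exit of that channel and also known as the laminin receptor, was 13.99 to 14.17 in RAS-ON and 13.82 to 14.12 in RAS-OFF arrays, with 9 of 10 RAS-OFF values below every RAS-ON value. Its change was -0.14 ± 0.05 (SE; limma adjusted p = 0.0365), and its exception was the 96 h array with the raised Gapdh difference. Rpl38 and Rpl19, large-subunit proteins near the exit of the peptide tunnel, changed by -0.11 ± 0.04 (SE) each (limma adjusted p = 0.0384 and 0.0391), with all 10 RAS-OFF values below the RAS-ON values in both. Rpl38 is known for its part in the translation of Hox mRNAs. These last calls were close to the threshold. Leaving out a single array ended the call of Rpl19 in 13 of 15 cases (not without RAS-ON array 2 or 96 h replicate 2) and that of Rpl38 in 13 (not without RAS-ON array 3 or 96 h replicate 1). It ended that of Rpsa in 8, namely RAS-ON arrays 1, 4 and 5, replicate 1 of 48, 60 and 72 h, and replicate 2 of 84 and 96 h. That of Rps2 ended in 7 of 31 alternatives, among them 1 single array, RAS-ON array 5 (limma adjusted p = 0.0604, with a range of 0.00407 to 0.244 over all alternatives).

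**Figure D3:**
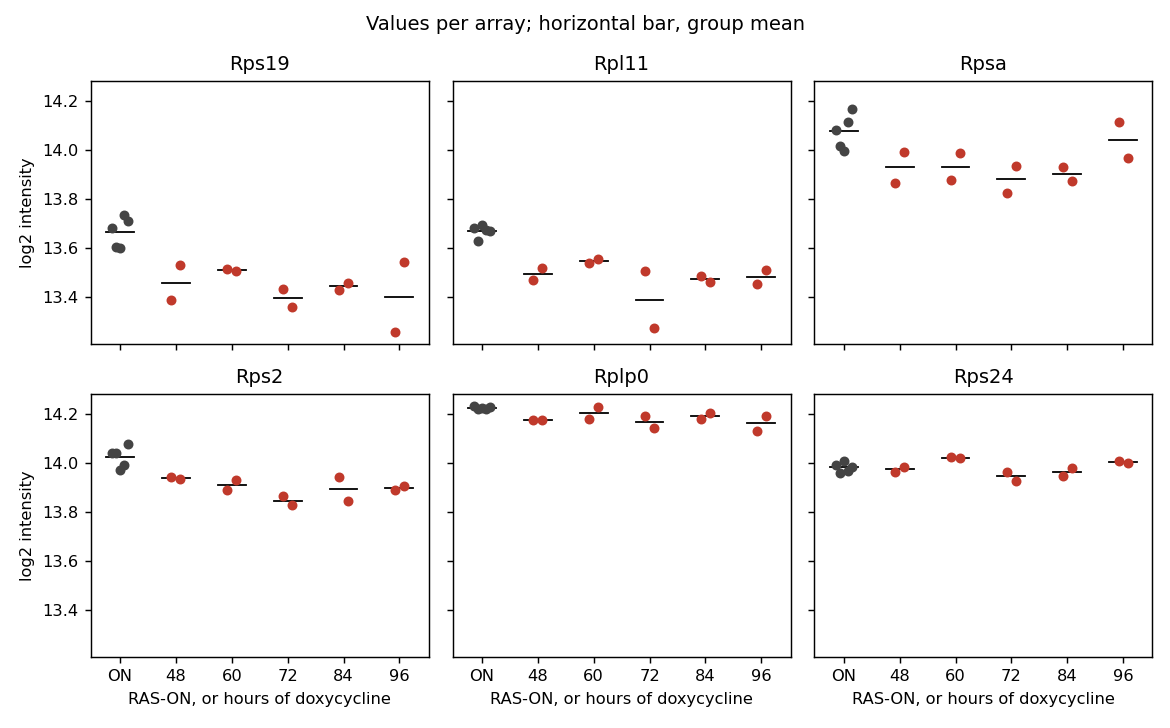
Log2 intensity per array of 4 members called lower (Rps19, Rpl11, Rpsa, Rps2) and 2 that did not pass the test (Rplp0, Rps24) in the RAS-ON arrays (grey) and at 48 to 96 h of doxycycline (red), with bars at the group means. Rps19 and Rpl11 lie lower at every time, by 0.22 and 0.19 on average, while Rps24 changes by 0.00.

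The remaining bright members include Rplp0, widely used as a reference gene. Rplp0, the base of the stalk that recruits elongation factors, had a RAS-ON mean of 14.22 ± 0.01 (SD, n = 5) and a mean of 14.18 ± 0.03 (SD, n = 10) after doxycycline, a change of -0.05 ± 0.04 (SE; limma adjusted p = 0.376). Its stalk partner Rplp2 changed by -0.03 ± 0.04 (SE; adjusted p = 0.601), and Rplp1, on a probe set of several symbols, by 0.02 ± 0.04 (SE; adjusted p = 0.755). Rps14, whose loss marks 5q- myelodysplastic syndrome, changed by -0.02 ± 0.05 (SE; adjusted p = 0.737), with a RAS-ON spread of 13.88 to 14.16 that held every RAS-OFF value. Its sign turned in 5 alternatives, 0.05 against RAS-ON arrays 1 to 3 among them. Rpl22, a target of deletion in lymphoid leukemia, changed by -0.06 ± 0.04 (SE; adjusted p = 0.27). On a dimmer single-symbol set of Rpl22, of mean 12.63, the change was -0.13 ± 0.05 (SE; limma adjusted p = 0.0398). On another, of mean 9.80, it was 0.02 ± 0.05 and was not called. On the brightest probe sets none of these 5 genes passed the test. For the 4 that are members the 95% interval there lay between -0.15 and 0.09.

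By subunit, 4 of 22 large-subunit genes were lower, 1 was higher and 17 were not called, with a median change of -0.05, where 28.7% of all genes were lower and 20.1% higher. Of 20 small-subunit genes 6 fell, 0 rose and 14 did not pass, also with a median of -0.05; 6 of the 20 had an unadjusted p below 0.05. Of 11 measured of 18 genes mutated in Diamond-Blackfan anemia, 3 fell (Rps19, Rpl11 and Rps27) and 8 did not pass, with a median of -0.05. The share lower was 27.3%, close to the 28.7% of all genes. Of the proteins at the peptidyl-transferase centre and upper tunnel, 0 of the 3 measured were called by limma, and 1, Rpl39, had an unadjusted p below 0.05. That reading of Rpl39 is from a dim probe set of mean 7.46. A several-symbol set of mean 14.23 that lists Rpl39 changed by 0.01 ± 0.05 (SE; limma adjusted p = 0.927). At the stalk 0 of 2 were called, with 0 at an unadjusted p below 0.05. At the tunnel exit 2 of 3 fell (Rpl38 and Rpl19), and around the mRNA path of the small subunit 2 of 4 fell (Rps2 and Rpsa). These lists are short and hold members already described.

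The largest changes were all on dim probe sets. Rpl37, a small zinc-binding protein of the large subunit, was 11.43, 11.42, 11.38, 11.20 and 11.21 in RAS-ON arrays. It was 10.65 and 10.61 at 48 h, 10.53 and 10.67 at 60 h, 10.30 and 10.20 at 72 h, 10.35 and 10.38 at 84 h, and 10.32 and 10.32 at 96 h. The groups did not overlap, and the arrays of 72 h and later lay below those of 48 and 60 h. The change was -0.89 ± 0.05 (SE; limma adjusted p = 5.44e-09). Rps25, a small-subunit protein used by viral and cellular internal ribosome entry sites, was 10.14 to 10.37 in RAS-ON and 9.60 to 9.99 in RAS-OFF arrays, a change of -0.56 ± 0.05 (SE; limma adjusted p = 6.23e-07). Rps6, the phosphorylated target of S6 kinase, was 10.02 to 10.37 in RAS-ON and 9.55 to 9.99 in RAS-OFF arrays, a change of -0.52 ± 0.08 (SE; limma adjusted p = 7.3e-05). Rps27, a zinc-finger protein of the small subunit, changed by -0.18 ± 0.05 (SE; limma adjusted p = 0.0088). Against RAS-ON arrays 1 to 3 alone the change of Rps27 was -0.13 and was not called (limma adjusted p = 0.0648). In all 4 genes every RAS-OFF value lay below every RAS-ON value.

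Rpl27a was the only member called higher. Its RAS-ON values were 7.26, 7.26, 7.50, 8.91 and 8.67, and its RAS-OFF values ran from 8.19 to 9.32. RAS-ON arrays 1 to 3 were below every RAS-OFF array, and arrays 4 and 5 were among them. The change was 0.83 ± 0.26 (SE; limma adjusted p = 0.0173) against all 5 RAS-ON arrays, 1.41 against arrays 1 to 3 and -0.05 against arrays 4 and 5. Without RAS-ON array 1 or array 2 limma's adjusted p was 0.0646 and 0.0597, in a range of 4.79e-06 to 0.873 over all alternatives.

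Brighter probe sets annotated with the same genes, together with predicted genes, a pseudogene or a retrotransposed copy, did not show these changes. For Rpl37, 2 probe sets that also list the copy Rpl37rt had RAS-ON means of 14.25 and 13.80 and changed by 0.00 ± 0.04 and 0.05 ± 0.05 (SE), while the remaining dim one changed by -0.21 ± 0.06 (SE). For Rps6, 9 such probe sets, which list Rps6-ps4 as well, changed by -0.18 to 0.02, and those above 13 (4 of the 9) by -0.07 to 0.01, with 0 of these 4 called by limma (lowest adjusted p 0.191). For Rps25 the several-symbol probe set changed by -0.07 ± 0.04 (SE), for Rps27 by 0.07 ± 0.05 and for Rpl27a by -0.05 ± 0.04, and none of these 3 passed the test. For Rpl12 and Rpl14 the order was the other way round. Their single-symbol probe sets changed by -0.04 ± 0.18 and -0.04 ± 0.09 (SE), and their brighter several-symbol ones by -0.16 ± 0.06 (adjusted p = 0.0457) and -0.18 ± 0.05 (adjusted p = 0.00626). The several-symbol probe sets of Rpl14 above log2 13 did not all fall: of 4, 3 were called lower and the other, of mean 13.29, changed by 0.01 ± 0.06 (SE; adjusted p = 0.911). A probe set of several symbols can report on any of its genes, and which transcript each dim probe set detects was not tested.

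**Figure D4:**
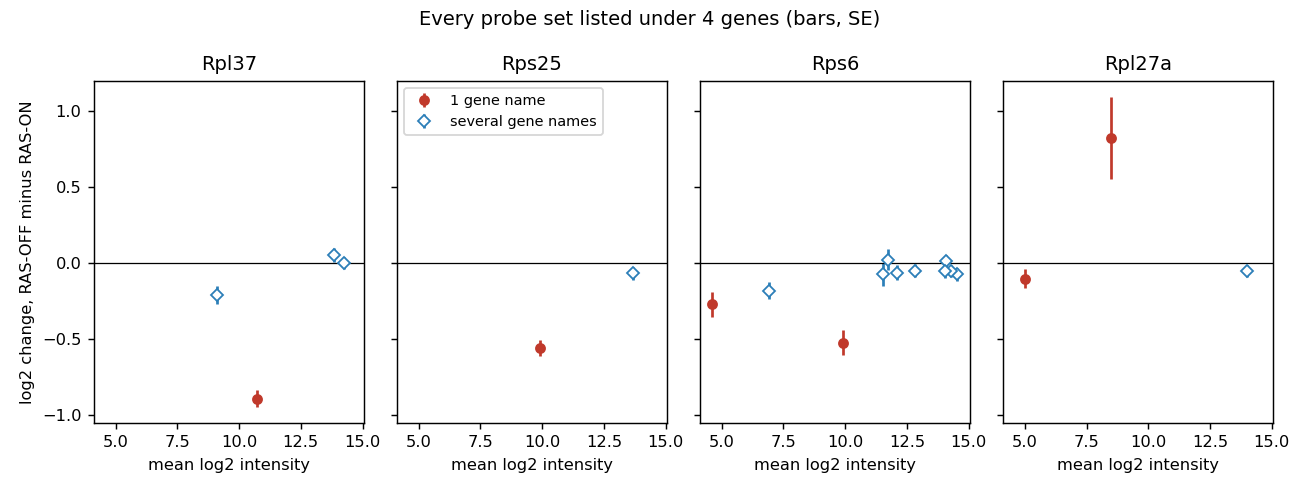
Log2 change (RAS-OFF minus RAS-ON, bars SE) against mean log2 intensity over 15 arrays for every probe set listed under Rpl37, Rps25, Rps6 and Rpl27a, alone (red) or with other gene names (blue, open). The bright several-name probe sets sit near 0 in all 4 panels, and the dim single-name ones reach -0.89, -0.56, -0.52 and 0.83.

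The same split appeared within single-symbol genes. The 42 members had 94 single-symbol probe sets, and 22 members had more than 1. Of the 60 probe sets above log2 13, 9 fell and 0 rose, with changes from -0.29 to 0.09. Of the 5 from 11 to 13, 2 fell and 0 rose, with changes from -0.17 to 0.08. Of the 29 at or below 11, 8 fell and 4 rose, with changes from -0.89 to 0.83, where 45.4% of all single-symbol probe sets were called (26% lower, 19.3% higher). Rps24, a small-subunit protein, changed by 0.00 ± 0.04 (SE) on its brightest probe set and by 0.83 ± 0.27 on a dim one of mean 8.46. On the dim one the groups overlapped, with 7.10 to 9.20 in RAS-ON and 8.30 to 9.32 in RAS-OFF arrays. Rpl41, the smallest ribosomal protein, changed by 0.07 ± 0.05 (SE) on its brightest and by 0.42 ± 0.10 and 0.50 ± 0.13 on dim ones of mean 9.99 and 9.45. The groups overlapped on both dim ones, where RAS-ON values reached 10.15 and 9.75 and RAS-OFF values began at 9.90 and 9.14. In 3 members a second bright probe set was called lower where the brightest was not. That of Rps15, of mean 13.31, changed by -0.29 ± 0.06 (SE; limma adjusted p = 0.000631), and its brightest by -0.05 ± 0.05. That of Rps10 changed by -0.16 ± 0.04 (SE; adjusted p = 0.00996) and its brightest by -0.05 ± 0.04, and that of Rpl37a by -0.15 ± 0.05 (SE; adjusted p = 0.016) and its brightest by -0.08 ± 0.04. Rps24, Rpl41, Rps15, Rps10 and Rpl37a were chosen after their values were seen.

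When each gene was read from its brightest probe set whatever the number of symbols, all 69 genes of the rule that could be read were above log2 13 (lowest mean 13.45), and their changes ran from -0.23 to 0.07. Of the 69, 10 fell and 0 rose, which is 14.5%, where 41.5% of all non-control probe sets were called (22.4% lower, 19.1% higher). Of the 42 members 7 fell (Rps19, Rpl11, Rpl12, Rpl14, Rpl19, Rpl38 and Rpsa). Of the 27 further genes 3 fell: Rpl32 by -0.23 ± 0.05 (SE), Rpl23 by -0.18 ± 0.04 and Rps12 by -0.11 ± 0.04. The next brightest sets were not called: 2 of Rpl23, both above log2 14, changed by -0.07 ± 0.04 and -0.06 ± 0.04 (SE), and 1 of Rps12 by 0.03 ± 0.05. Dimmer sets called lower were 1 of Rpl23, of mean 8.17, by -0.69 ± 0.08 (SE), and 1 of Rps12, of mean 12.67, by -0.21 ± 0.05. The Rps12 sets of mean 8.71 and 7.81 were not called. Of all 72 several-symbol probe sets above log2 13 that list a gene of the rule, 11 fell and 0 rose (15.3%). Rpl23 is, like Rpl11, a ribosomal protein known to bind Mdm2. These probe sets were chosen after the data were seen, and many of them also list pseudogenes of the same protein.

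The 5 times share the RAS-ON arrays, so each is given on its own. At 48 h and at 60 h the same 3 members were called, Rpl37, Rps25 and Rps6, all lower (7.14% of members, where 27.4% and 25.8% of all genes were called, 13.7% and 14.2% lower). At 72 h 7 members were lower, where 31.8% of all genes were called (18.3% lower): these 3 with Rps19, Rpl11, Rps2 and Rps27. At 84 h 5 were lower, Rpl37, Rps25, Rps6, Rps19 and Rpl11, and Rpl27a was higher (all genes: 36.8% called, 21.8% lower, 15% higher). At 96 h Rpl37, Rps25, Rps6 and Rps19 were lower and Rpl27a was higher (all genes: 37.6% called, 20.9% lower, 16.7% higher). The median change of the members was -0.05, -0.04, -0.07, -0.07 and -0.05 at the 5 times. Among the 33 bright members 0, 0, 3, 2 and 1 were called by limma at the 5 times, and 2, 0, 5, 4 and 2 had an unadjusted p below 0.05. With 2 arrays a time, single arrays moved these counts: without 72 h replicate 1 or 2, 4 or 2 members were called at 72 h, and without 96 h replicate 1 or 2, 2 or 3 at 96 h. At 84 h the count was 3 without RAS-ON replicate 1, either 60 h array or either 84 h array.

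Within the RAS-OFF times the slope asks whether levels went on moving. Of the 42 members 1 had a called slope, where 13.7% of all genes did (8.75% falling). Rpl37 fell by 0.087 per 12 h on the log2 scale, with a standard error of 0.022 (limma adjusted p = 0.0173). Its changes against RAS-ON were -0.69, -0.73, -1.08, -0.96 and -1.01 from 48 to 96 h. Without 48 h replicate 1, or without either 96 h array, its slope was not called. The slopes of the 33 bright members ran from -0.03 to 0.02 per 12 h, with 0 called by limma and 0 at an unadjusted p below 0.05.

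Medians further from 0 were measured in other lists of the translation machinery. Of 24 ribosome biogenesis factors, the nucleolar proteins and RNA polymerase I parts that build ribosomes, 17 fell, 0 rose and 7 did not pass, with a median of -0.35. Pes1 and Bop1, partners in the PeBoW complex of large-subunit maturation, changed by -0.72 ± 0.08 and -0.68 ± 0.09 (SE). Ltv1, a factor of small-subunit maturation, changed by -0.72 ± 0.07 (SE). Each of these 3 had an adjusted p below 0.05 in limma, and the lists' background is the 48.8% of all genes given above.

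Of 76 mitochondrial ribosomal protein genes, whose products form the separate ribosome inside mitochondria, 42 fell, 3 rose and 31 did not pass, with a median of -0.21. Mrpl19 changed by -0.72 ± 0.09, Mrps35 by -0.67 ± 0.08 and Mrps10 by -0.60 ± 0.07 (SE). Their probe sets are dimmer than most of the members' (means of 9.29 to 9.87 for these 3), and a comparison at equal brightness was not tested. The cytosolic ribosomal proteins and both of these lists share the RAS-ON and RAS-OFF arrays.

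Of 19 measured of 20 other TOP mRNAs, which encode translation factors and related proteins, 8 fell, 3 rose and 8 did not pass, with a median of -0.12. Nme2, a nucleoside diphosphate kinase, changed by -1.05 ± 0.06, Vim, the intermediate filament vimentin, by -0.60 ± 0.07, and Eif3l, a subunit of initiation factor eIF3, by -0.39 ± 0.06 (SE). Of 7 measured of 8 host genes of small nucleolar RNAs, 4 rose, 1 fell and 2 did not pass, with a median of 0.21. Snhg1 changed by 0.37 ± 0.07, Snhg8 by 0.34 ± 0.06 and Snhg6 by -0.53 ± 0.07 (SE).

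Of 12 measured of 13 genes of mTORC1 and LARP1 control, 5 fell, 1 rose and 6 did not pass, with a median of -0.13. Tsc1 and Tsc2 encode the complex that holds mTORC1 off, and Tsc1 changed by 0.44 ± 0.07 and Tsc2 by -0.25 ± 0.07 (SE). With the mean of its probe sets Tsc1 changed by 0.03 (limma adjusted p = 0.714). Tsc2 was not called when RAS-ON arrays 4 and 5 alone served as the control (adjusted p = 0.181). Larp4, a relative of Larp1 that binds poly(A), changed by -0.29 ± 0.08 (SE). The others called lower were Larp1, Rptor and Mtor, named here after their values were seen. They changed by -0.23 ± 0.05, -0.23 ± 0.06 and -0.20 ± 0.06 (SE; limma adjusted p = 0.00146, 0.00549 and 0.0096). The 4 measured ribosome-bound or fusion partners, Fau, Serbp1, Btf3 and Naca, changed by -0.09 ± 0.04, 0.03 ± 0.06, 0.04 ± 0.07 and -0.11 ± 0.06 (SE), and none passed the test.

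**Figure D5:**
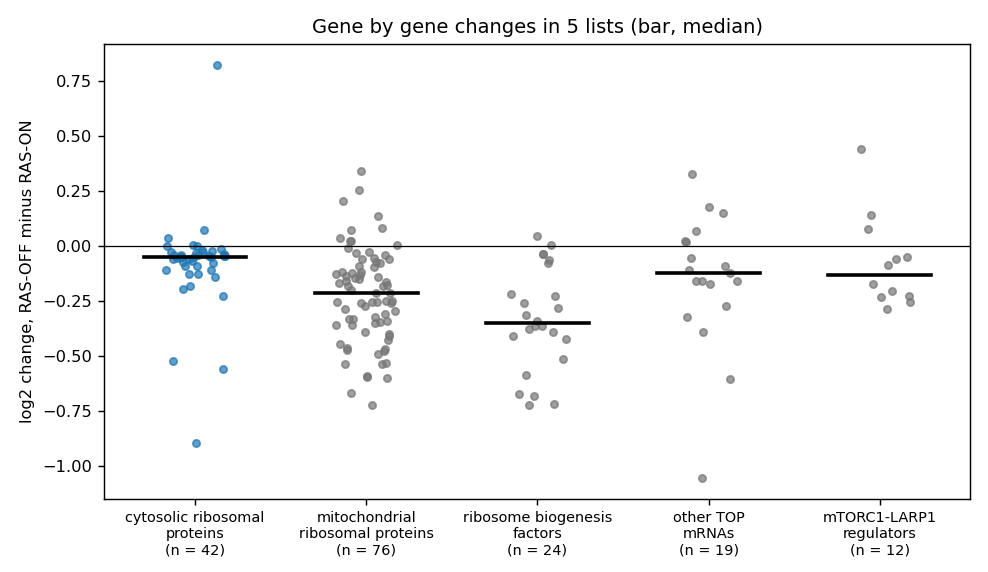
Log2 change (RAS-OFF minus RAS-ON) of each gene in 5 lists, each point a gene and each bar the median of its list. The 42 cytosolic ribosomal protein genes cluster at a median of -0.05, against -0.21 for 76 mitochondrial ribosomal proteins and -0.35 for 24 ribosome biogenesis factors.

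Ribosomal protein paralogs can replace a member in some tissues, and 6 of 8 were measured. Rpl3l, the muscle form of Rpl3, was 4.79 to 5.17 in RAS-ON and 4.54 to 4.85 in RAS-OFF arrays, and changed by -0.27 ± 0.07 (SE; limma adjusted p = 0.00349) on a very dim probe set. Rpl22l1, the paralog whose splicing and level answer to Rpl22, was 12.79 to 12.93 in RAS-ON and 12.66 to 13.18 in RAS-OFF arrays, a change of 0.12 ± 0.06 (SE; limma adjusted p = 0.118). Its RAS-OFF values spread wider and 7 of 10 lay above every RAS-ON value. Without 72 h replicate 2 its change was 0.16 (limma adjusted p = 0.0208), and without both 72 h arrays 0.16 (adjusted p = 0.0262). Rps27l, a p53 target, changed by -0.06 ± 0.04, Rpl7l1 by -0.04 ± 0.09, Rps4l by -0.02 ± 0.07 and Rpl39l by -0.00 ± 0.06 (SE), and none of these 4 passed the test of RAS-OFF against RAS-ON. The last 3 turned sign under other settings. Rps4l, on a dim probe set of mean 6.59, had a called slope over the RAS-OFF times, of -0.094 ± 0.027 per 12 h (SE; limma adjusted p = 0.031). Its changes against RAS-ON were 0.16, -0.08, 0.19, -0.05 and -0.32 from 48 to 96 h.

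Over the whole family the per-array position was narrow. The median over the 42 members of the log2 value minus its RAS-ON mean lay between -0.02 and 0.03 in the 5 RAS-ON arrays and between -0.09 and -0.02 in the 10 RAS-OFF arrays, and the RAS-OFF array nearest to RAS-ON was 96 h replicate 2. The summed intensity of the 42 probe sets was 534235 to 549771 in RAS-ON and 508681 to 532466 in RAS-OFF arrays, so that the groups did not overlap. The erythroid markers rose in the same arrays, as given above, and their part in this difference was not tested. With each array centred on its median the members' median change was -0.03, with 7 lower and 1 higher. Without the 3 RAS-OFF arrays that an earlier analysis of these data set apart (48 h, 84 h and 96 h replicate 1), 6 members were lower and 0 higher by limma.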

How the data were processed

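Total RNA was amplified, labelled with biotin and hybridised to 15 Affymetrix arrays. The authors' deposited values are RMA intensities, per the submitters' processing notes, on a linear scale; the RMA version is not given in the sources used here. RMA forces like distributions on all arrays, so every change is relative to the other genes. In the re-analysis log2 of the deposited intensity was taken and no filter or pseudocount was used. Of 45101 probe sets, 34945 carried 1 symbol, 932 several, 9160 none and 64 were controls. All 42 members matched RefSeq. Every value column was used. No replicate arrays were identical (lowest SD of the log2 difference between any 2 arrays 0.127). Array number limits the precision.

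limma 3.58.1 (R 4.3.3) fitted 1 mean per group. RAS-ON was subtracted from the average of the 5 RAS-OFF means and from each of them, and a slope per 12 h was fitted through the 5 means. Tests were two-sided, adjusted by Benjamini-Hochberg over 18193 genes, and an adjusted p below 0.05 counts as called. Further single-symbol probe sets of a gene were read from a separate fit, adjusted over 34945 single-symbol probe sets. Several-symbol probe sets, and the brightest sets of any number of symbols, were read from a fit adjusted over 45037 non-control probe sets. Adjusted p-values from these fits differ in their basis from those of the 18193 genes. SEs and 95% intervals are those of the fit. On simulated data with 18193 genes, RAS-OFF against RAS-ON recovered 17% of 100 genes given a change of 0.2 log2 and 83% of 100 given 0.5. There were 4 other calls. Only these few genes were changed in the simulation, where 48.8% of all genes were called in the real data. The changed genes were drawn from all genes, whose median residual SD was 0.119, against 0.0414 for the bright members. The recovered shares therefore do not say how often such a change in a bright member would be called.

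The members, the 19 gene lists, the marker lists and the rule for named genes were chosen with earlier results of these data known. The rule named Rplp0, Rplp1, Rplp2, Rpsa, Rps6, Rps14, Rps19, Rpl5, Rpl11, Rpl22 and the paralogs whatever their values, the 8 largest called rises and falls, the 3 steepest called slopes each way, the 2 largest rises and falls at each time, and up to 3 called genes of each list. Alternatives were the choice of probe set, scaling, variance model, arrays or times left out, RAS-ON subsets, a dim-gene filter, the replicate block, 2 groups, a regression within RAS-OFF and an adjusted p below 0.01; reading the brightest probe set of any number of symbols was added after the data were seen.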

Additional observations from a re-analysis of the deposited data

Results flagged for a closer look

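In the 5 RAS-ON arrays, 3 values of members stood far from the other 4, by a gap over the range above Dixon's critical value of 0.71. For Rps6, RAS-ON replicate 3 was lowest at 10.02, with a gap over range of 0.744. For Rps27, RAS-ON replicate 4 was highest at 8.77 (0.74). For Rps26, RAS-ON replicate 1 was lowest at 14.04 (0.772). Chance alone marks about 1 in 20 groups.

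The change of Rpl37 differed between the RAS-OFF times, with a called slope of -0.087 per 12 h in limma (adjusted p = 0.0173); no other member had a called slope.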

How the results depend on the processing

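Of the 42 members 1 was called higher as reported. The count was 2 with the mean of a gene's probe sets, 3 with probe sets not ending in _x_at, _s_at or _a_at, and 0 when 3 RAS-OFF arrays set apart by an earlier analysis (48 h, 84 h and 96 h replicate 1) were left out, at an adjusted p below 0.01 or with probe sets of any number of symbols. The count lower, 10 as reported, was 6 without those 3 arrays, with RAS-ON arrays 1 to 3 as the control, without the 72 h arrays or at an adjusted p below 0.01, and 7 to 14 in the other choices of probe set. Tested separately, 4 of the 94 single-symbol probe sets of members were higher and 19 lower; the 4 belong to Rpl27a, Rpl41 and Rps24. The median change was -0.072 against RAS-ON arrays 4 and 5. The count at 48 h, 3 as reported, was 5 with trend and robust settings or against RAS-ON arrays 4 and 5. At 72 h, 7 became 4 with the restricted suffixes. At 84 h, 6 became 10 with the mean of probe sets and 3 without the 3 arrays. At 96 h, 5 became 2 without the 3 arrays. The 1 slope became 0 with the restricted suffixes and without the 3 arrays. With single arrays left out, the counts were 0 to 1 higher, 7 to 10 lower, 2 to 4 at 48 h, 2 to 3 at 60 h, 2 to 7 at 72 h, 3 to 5 at 84 h, 2 to 6 at 96 h and 0 to 1 for the slope, and the median was -0.06 to -0.05. Fewer samples or genes enter those fits; otherwise the cause was not tested.

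The replicate numbers do not pair the arrays: deviations of same-numbered arrays correlated at -0.23 to 0.22, above 0.1 in 2 of 15 pairs. With the replicate number as a block, in which RAS-ON arrays 3 to 5 have no partner, 4 members were lower, and Rps19 and Rpl11 had adjusted p-values of 0.0609 and 0.0697. These genes lost their call in this setting alone among those run (adjusted p otherwise from 0.000673 and 0.000692 up). Rps14 turned to 0.071 with the block.

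Rps14 also turned to 0.055 against RAS-ON arrays 1 to 3 and 0.0026 with array weights, and ranged from -0.062 to 0.0071 with single arrays left out. Rpl7l1 was 0.13 against RAS-ON arrays 4 and 5, 0.00038 without 84 h, and -0.14 to 0.016 with single arrays out. Rpl39l was 0.020 with centred arrays, 0.00658 against RAS-ON arrays 1 to 3, 0.016 without 48 h, 0.014 without 72 h, and -0.034 to 0.035 with single arrays out. Rps4l was 0.0019 with centred arrays, 0.030 against RAS-ON arrays 4 and 5, 0.054 without 96 h, and -0.055 to 0.020 with single arrays out. Rpl27a was -0.045 against RAS-ON arrays 4 and 5 and -0.050 with probe sets of any number of symbols, under which Rpl37 was 0.00071 and Rps27 0.065. Calls at 1 setting each were lost for Snhg1, Tsc1, Larp4 and Tsc2, and gained for Rpl22, Rps27l and Rpl7l1; Rpl22l1 gained a call in 2, without 72 h replicate 2 and without 72 h. Over all alternatives, 1004 values of named genes kept direction and call, 79 lost the call, 5 gained it and 28 turned.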
